A study of Mus musculus with 2 samples.

Results

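Early committed myocytes were taken here as the Myog-positive cells of sorted muscle stem cells (MuSCs) that had not reached the embryonic-myosin stage and were below a limit for histone and mitosis genes. A cell was a member if it had at least 2000 unique molecular identifiers (UMIs, each counting 1 captured RNA molecule), less than 10% of them from mitochondrial genes and no UMI of Pdgfra, a marker of fibro-adipogenic cells. It also had at least 3 UMIs and at least 500 CPM (the UMIs of a gene per 1000000 UMIs of the cell or class) of Myog. Further limits were less than 500 CPM of Myl4 and Myh3 together, less than 1000 CPM of Hist1h1b, Hist1h2ap and Hist1h2ae together, and less than 1000 CPM of Ube2c, Ccnb1, Cdc20 and Cenpf together. Of 4954 deposited cells, 2711 passed the filters on depth, mitochondrial share and Pdgfra, and 85 of these were members. All 85 came from the mechanical overload (MOV) library.

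Plantaris muscle of adult mice was studied 5 days after sham surgery or synergist ablation, which loads the plantaris by removing parts of the gastrocnemius and soleus. Mice of both groups were 26 weeks old and carried Pax7rtTA; TRE-H2B-GFP, so that the Pax7 promoter drove a doxycycline-dependent nuclear GFP. Both groups had received doxycycline at 2.0 mg/mL in the drinking water for 2 weeks. Single-cell suspensions were sorted for VCAM-positive cells without CD31, CD45 and Sca1 according to the protocols, and 1 droplet library was made per group. The methods describe male and female mice, several per group, and the labels a single mouse. Neither says whether cells of several animals were combined, so each library was taken as 1 sample. The spread between animals is unknown, and no test was made between sham and MOV.

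Myogenin, the product of Myog, is a basic helix-loop-helix factor that turns on the differentiation program when a Pax7-positive MuSC leaves the cell cycle and commits to become a myocyte. Myocytes express the fusion proteins myomaker and myomixer and then the sarcomere proteins, and they fuse with each other or with existing fibres. Cdkn1c, which encodes the cyclin-dependent kinase inhibitor p57, is an imprinted gene that is known for a role in withdrawal of myoblasts from the cell cycle. Myogenin and MyoD bind E-box motifs, of which CAGCTG is a common form at muscle promoters. Members were compared with 2 other classes of the MOV library. Myog-low Pax7 cells (639 cells) had a Pax7 UMI, Myog below 100 CPM and the same other limits, and late myocytes (68 cells) had at least 500 CPM of Myl4 and Myh3 together. Late myocytes met the limits on depth, mitochondrial share and Pdgfra but had no Myog, histone or mitosis limit. Their histone and mitosis sums reached 1648 and 1585 CPM, so cell cycle genes were not limited alike in members and late myocytes.

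The genes whose levels set the members apart from Myog-low Pax7 cells lie across the genome. On GRCm38, Myog is at chr1:134289989-134292548 on the plus strand, Cdkn1c at chr7:143458339-143461050 on the minus strand, Mymk at chr2:27061636-27072179 on the minus strand and Mymx at chr17:45600971-45602102 on the minus strand. Casz1 is at chr4:148804429-148954889 and Fndc5 at chr4:129136999-129144593, both on the plus strand. Among the 15 genes highest over Myog-low Pax7 cells was Gm28653, annotated as a long intergenic noncoding RNA at chr1:20669882-20684298 on the plus strand. Its span holds the muscle microRNAs mir-206 and mir-133b on the same strand, so their mature sequences are shown, although the microRNAs themselves were not measured by these libraries. The sequences are from RefSeq on GRCm38.p6, and capitals mark the seed, bases 2 to 8. The 3p arms lie at chr1:20679055-20679076 and chr1:20682834-20682855, and their seeds differ from each other.
mmu-miR-206-3p: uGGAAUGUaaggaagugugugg
mmu-miR-133b-3p: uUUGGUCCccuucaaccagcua

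Promoter windows of 250 bases before the annotated start were read from RefSeq on GRCm38.p6 for 4 genes that were higher in the members than in Myog-low Pax7 cells, chosen after their values were seen because they hold the E-box CAGCTG. They are the kinase gene Mylk4 (chr13:32783965-32784214, minus strand), the troponin gene Tnnt2 (chr1:135836084-135836333, plus strand) and the acetylcholine receptor subunit genes Chrna1 (chr2:73580339-73580588, minus strand) and Chrng (chr1:87205561-87205810, plus strand). Capitals mark CAGCTG, which reads the same on both strands.
Mylk4: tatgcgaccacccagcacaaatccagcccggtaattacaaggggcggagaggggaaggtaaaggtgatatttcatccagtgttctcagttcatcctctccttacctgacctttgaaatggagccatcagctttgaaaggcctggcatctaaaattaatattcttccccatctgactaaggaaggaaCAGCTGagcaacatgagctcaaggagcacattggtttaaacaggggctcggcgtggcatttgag
Tnnt2: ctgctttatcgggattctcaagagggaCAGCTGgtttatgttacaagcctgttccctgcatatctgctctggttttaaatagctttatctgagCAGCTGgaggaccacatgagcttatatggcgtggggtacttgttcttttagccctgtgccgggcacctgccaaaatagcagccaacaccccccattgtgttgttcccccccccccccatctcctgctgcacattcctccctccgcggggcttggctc
Chrna1: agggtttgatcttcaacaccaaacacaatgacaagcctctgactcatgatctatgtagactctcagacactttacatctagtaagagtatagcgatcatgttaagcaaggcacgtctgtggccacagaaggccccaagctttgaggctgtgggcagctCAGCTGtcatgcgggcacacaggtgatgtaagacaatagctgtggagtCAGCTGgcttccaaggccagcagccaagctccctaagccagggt
Chrng: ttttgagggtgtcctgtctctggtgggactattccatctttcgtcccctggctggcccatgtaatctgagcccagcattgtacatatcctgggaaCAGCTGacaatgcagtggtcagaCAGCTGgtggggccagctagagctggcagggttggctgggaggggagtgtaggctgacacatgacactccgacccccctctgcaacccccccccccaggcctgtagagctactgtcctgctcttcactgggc

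The motif began 64 bases before the start of Mylk4, 223 and 157 bases before that of Tnnt2, 92 and 44 bases before that of Chrna1 and 155 and 132 bases before that of Chrng. The Myog window held no CAGCTG. Among all RefSeq promoter windows of this length, 13.0% held it. Of the genes counted in the comparison with Myog-low Pax7 cells that had a window, 14.5% of 9194 held the motif, against 24.8% of the 448 that were at least 2-fold higher in the members and 17.5% of the 1162 that were at least 2-fold lower. In the comparison with late myocytes the motif was in 14.3% of the 7935 counted genes with a window. It was in 17.03% of the 323 genes higher in the members and in 24.2% of the 513 genes lower in them. Of the listed sarcomere genes with a window, 17 of 39 (43.6%) held CAGCTG. These shares describe letters in a window and were not tested.

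The MOV library held 3854 cells and 88498487 UMIs and the sham library 1100 cells and 7302661 UMIs, with a median of 16836 and 4116.5 UMIs per cell. The 2 libraries shared 44 cell barcodes, none of them of a member. The members had a median of 36742 UMIs (2059 to 96635), against 18860 in Myog-low Pax7 cells and 50350 in late myocytes, so cells of the 3 classes differed in depth. Some shares of cells with a UMI are therefore given after each cell was thinned to 2000 UMIs, where this is stated. All other counts of cells with a UMI are at full depth and depend on it. Doublet scoring marked 2.45% of scored MOV cells, and 1 member, 11 Myog-low Pax7 cells and no late myocyte were among them. All intervals are at 95% and cover counting error only.

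Members made up 3.93% of the 2163 MOV cells that passed the filters (exact binomial interval 3.15 to 4.84%). In the sham library 0 of 548 such cells was a member, which allows a share of up to 0.547% at a limit of 3 counts (exact binomial interval 0 to 0.671%). That library also held 1 late myocyte, 1 Myog-high cell above a histone or mitosis limit and 75 Myog-low Pax7 cells. Its Myog-low Pax7 cells had a median of 8153 UMIs, less than in MOV, and depth, sort and condition cannot be told apart with 1 library each. Within MOV, members were 85 of 154 cells that reached the Myog limit (55.2%, 47.0 to 63.2%), 52 others were late myocytes and 17 exceeded a histone or mitosis limit.

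Members were selected on Myog, on Myl4 and Myh3, on the histone and mitosis genes named above and on Pdgfra, and these values are given as a description. Myog had a median of 1575 CPM over the 85 cells (530 to 7130). The summed level of Myl4 and Myh3 had a median of 74.2 CPM and was 0 in 22 cells. Just inside the Myog limit were 9 members at 530 to 597 CPM, and 11 cells that met the other limits were just outside, at 406 to 488 CPM. For Myl4 and Myh3 together, 5 members were at 410 to 476 CPM and 1 cell was outside at 556 CPM. Pax7, which the rule did not use for members, had no UMI in 38 of the 85 cells and a class level of 29.0 CPM. In late myocytes its class level was 12.8 CPM.

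The 4 markers that the rule did not use were chosen with earlier results of these data known. Their levels therefore describe the members and are not a check of the label. All 4 were higher in the members than in Myog-low Pax7 cells, where a class level is the CPM of the summed UMIs of its cells. Cdkn1c stood at 2794.5 CPM in members and 157 CPM in Myog-low Pax7 cells, a log2 ratio of 4.15 (4.09 to 4.22). Mymk, which encodes the fusion protein myomaker, was at 349 against 8.96 CPM (log2 ratio 5.29, 5.03 to 5.55). Casz1, a zinc-finger transcription factor gene, was at 30.8 against 0.869 CPM (5.15, 4.31 to 6.10). Fndc5, which encodes the membrane precursor of irisin, was at 93.2 against 5.01 CPM (4.22, 3.85 to 4.6001). At full depth, at least 3 of the 4 markers had a UMI in 57 of 85 members (67.1%) and in 10 of 639 Myog-low Pax7 cells (1.56%), and 1 member had none of them. The same held for 54 of 68 late myocytes (79.4%) and 12 of 17 Myog-high cells above a histone or mitosis limit (70.6%). In late myocytes Casz1 was at 41.4 CPM and Fndc5 at 171 CPM, so these markers were not particular to the members.

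**Figure D1:**
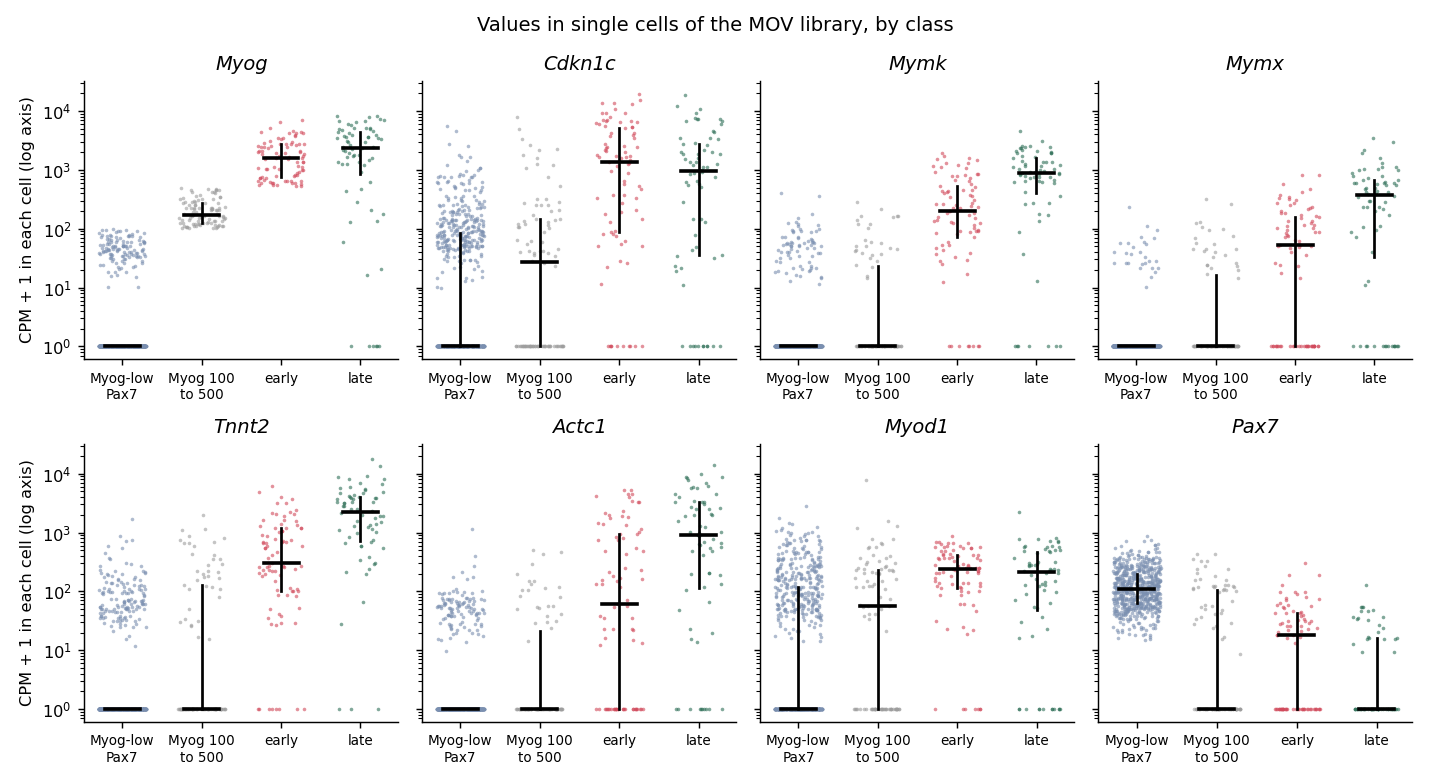
Each point is 1 cell of the MOV library, with CPM + 1 of a gene on a log axis and the classes side by side. Cdkn1c, Mymk and Tnnt2 lay higher in most members than in most Myog-low Pax7 cells, and the Cdkn1c values of members ran from 0 to 19667 CPM.

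At equal depth the contrast remained. After thinning, Mymk had a UMI in 43.5% of members (32.8 to 54.7%), 1.72% of Myog-low Pax7 cells, 67.6% of late myocytes and 0.639% of the 313 Pdgfra cells of the MOV library, a class that should lack Mymk and serves as its background for free RNA. Cdkn1c had a UMI in 65.9% of members and 64.7% of late myocytes, against 13.9% of Myog-low Pax7 cells and 10.9% of Pdgfra cells. The class level of Cdkn1c was 157 CPM in Myog-low Pax7 cells and 49.9 CPM in Pdgfra cells. Without thinning, the shares of Mymk were 90.6, 11.7, 89.7 and 9.58% and those of Cdkn1c 88.2, 45.1, 83.8 and 54.3% in the same order, and the Pdgfra cells had a median of 39920 UMIs. Pax7 itself had a UMI in 5.88% of thinned members and 25.04% of Myog-low Pax7 cells, which had been chosen for it.

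Of 11747 genes with at least 20 UMIs in members and Myog-low Pax7 cells together, 604 (5.14%) were at least 2-fold higher in the members and 1591 (13.5%) at least 2-fold lower, and the median log2 ratio was -0.12. The shares of gene lists below are read against these 2 percentages. Among the 15 genes with the highest ratios were genes of fusion (Mymk, Mymx), the sarcomere (Actc1, Tnnt2), the neuromuscular synapse (Dok7) and calcium stores (Srl), beside Cdkn1c. Mylk4, a member of the myosin light chain kinase family, had the highest ratio, at 36.4 against 0.334 CPM (6.77, 5.50 to 8.41), with UMIs in 24 of 85 members and 5 of 639 Myog-low Pax7 cells. Gm28653 was at 84.4 against 4.01 CPM (4.40, 3.99 to 4.82) and was seen in 43 members. Bex1 (137 against 11.6 CPM) and E2f8, an atypical E2F repressor gene (34.3 against 3.07 CPM), were also among the 15. Ctrb1, which encodes the digestive protease precursor chymotrypsinogen B, was at 55.7 against 4.14 CPM, but 1 member carried 35.3% of its UMIs. Il1b, the gene of the cytokine interleukin-1 beta, was at 24.3 against 2.21 CPM, with UMIs in 27 members and 25.3% of them in 1 cell.

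Among the genes with the lowest ratios were Dpt, Cxcl10, Nrep, Chodl, Gm13889, Timp3, Prelp, Gpx3 and Ccn5. Dpt, which encodes the matrix protein dermatopontin, was at 3.23 CPM in members and 60.6 CPM in Myog-low Pax7 cells (-4.23, -5.24 to -3.39). Gpx3, a secreted glutathione peroxidase gene, was at 68.9 against 563 CPM (-3.03, -3.22 to -2.84). The interferon-induced chemokine gene Cxcl10 was at 8.50 against 100.3 CPM (-3.56). Timp3, an inhibitor of matrix metalloproteinases, was at 22.6 against 193 CPM (-3.09).

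**Figure D2:**
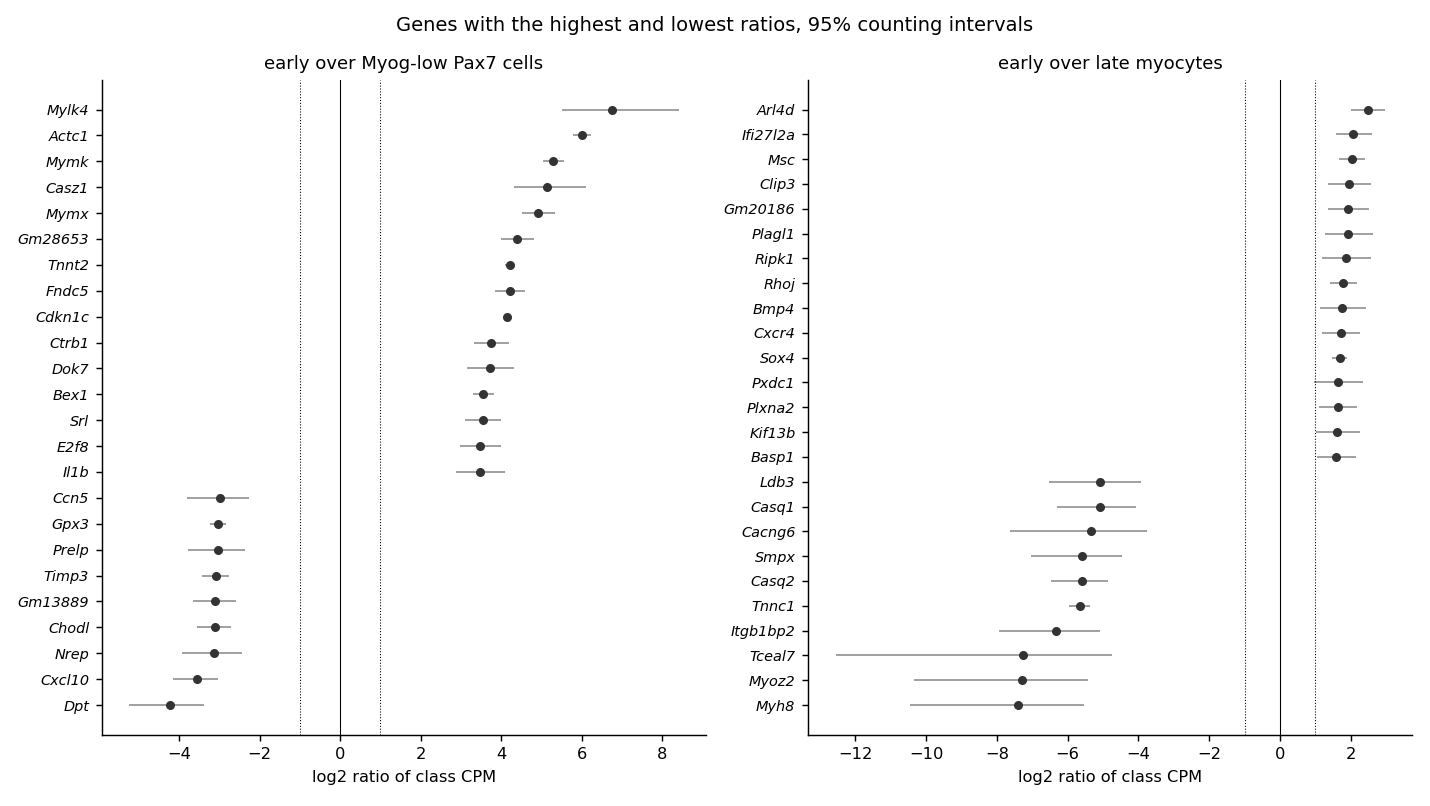
Points are log2 ratios of class CPM, members over Myog-low Pax7 cells and members over late myocytes, and bars are 95% counting intervals. The genes shown are from the 15 highest and 10 lowest of each comparison, and run from 6.77 for Mylk4 over Myog-low Pax7 cells to -7.40 for Myh8 against late myocytes.

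Among the myogenic regulators, 8 of 26 counted genes (30.8%) were at least 2-fold higher in members than in Myog-low Pax7 cells and 3 (11.5%) at least 2-fold lower. Myod1, the determination factor that acts before Myog, was at 277 CPM in members and 115 CPM in Myog-low Pax7 cells (1.27, 1.16 to 1.39), and at 283 CPM in late myocytes. With cycling Pax7 cells included in the comparison, its ratio was 0.77. Myf5, its early relative, was lower at 56.3 against 206 CPM (-1.87, -2.09 to -1.66), and Msc, which encodes a repressor of the bHLH family, at 84.4 against 212 CPM (-1.33). Rbm24, an RNA-binding splicing regulator gene, was higher at 130 against 14.7 CPM (3.14, 2.91 to 3.38), and Mef2a, a MADS-box partner of the bHLH factors, at 224 against 87.96 CPM (1.35, and 0.91 after thinning). Mef2c was at 14.7 against 4.54 CPM (1.69), with UMIs in 12 members. Its ratio was 0.10 with a Myl4 and Myh3 limit of 250 CPM and 0.56 with the sham cells pooled in. Tead4, with fewer than 100 UMIs in both classes and named after its value was seen, was at 16.4 against 0.602 CPM (4.77, 3.74 to 5.97).

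Of 23 inhibitors and other genes of cell cycle exit, 2 (8.70%) were at least 2-fold higher in members than in Myog-low Pax7 cells and none was 2-fold lower. They were Cdkn1c and Rb1, the retinoblastoma gene, which stood at 50.7 against 15.7 CPM (1.69, 1.40 to 1.98). The share of 8.70% was near the background of 5.14%, and the list's median log2 ratio was -0.27. Cdkn1a, which encodes p21, was at 532 against 270 CPM (0.98, 0.90 to 1.06) and at 1443 CPM in late myocytes. Cdkn1b, which encodes p27, was at 33.7 against 54.1 CPM (-0.68). In the members Cdkn1c varied widely, with a median of 1371 CPM, quartiles of 85.3 and 5205 CPM and 10 cells without a UMI. The cell with the most Cdkn1c UMIs held 15.7% of the class sum. Without that cell, left out after the values were seen, the class level was 2409 CPM and the ratio over Myog-low Pax7 cells 3.94 (3.87 to 4.01).

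The limits of the rule removed cells high in histone and mitosis genes, so genes linked to those are partly fixed by the choice of members and of Myog-low Pax7 cells alike. Of 35 S phase genes outside the rule, 12 (34.3%) were at least 2-fold lower in members than in Myog-low Pax7 cells and none 2-fold higher. Of 35 G2/M genes, 11 (31.4%) were lower and none higher, against a background of 13.5% lower. Clspn (5.86 against 19.4 CPM), a checkpoint adaptor at the replication fork, and the proliferation marker Mki67 (9.38 against 35.02 CPM) were among the lower genes, and Clspn had a ratio of 0.74 after thinning and -0.79 from the mean of per-cell CPM. Summed over the list, S phase genes stood at 744 CPM in members, 1117 CPM in Myog-low Pax7 cells and 828 CPM in late myocytes. Their median over single cells was 277 CPM in members and 382 CPM in Myog-low Pax7 cells. G2/M genes stood at 591 CPM in members and 836 CPM in Myog-low Pax7 cells, but their median over single cells was 239 and 207 CPM. The typical member was therefore not lower in G2/M genes.

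The S phase list was not spread evenly over the members. At a limit of 1000 CPM, set after the values were seen, 19 of 85 members (22.4%, 14.0 to 32.7%) were above it, with a median of 2095 CPM, while the other 66 had a median of 227 CPM. The share above was 21.3% in Myog-low Pax7 cells, 16.2% in late myocytes and 88.7% in the 415 Pax7 cells above a histone or mitosis limit. The 19 members also had more UMIs (median 50476 against 35398) and less Myog (median 988 against 1740 CPM). Chosen after their values were seen, the helicase subunit genes Mcm3 and Mcm5 were at 90.4 against 6.85 CPM and 47.3 against 2.42 CPM in these 19 and the other 66 members. Cyclin E2 (Ccne2) was at 37.7 against 0.403 CPM. As these genes belong to the list that set the limit, their difference is a description.

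Genes outside that list differed between the 19 and the 66 members. Cdkn1c was at 615 CPM in the 19 and 3611 CPM in the 66 (log2 ratio -2.55, -2.68 to -2.43). It had a UMI in 16 of 19 and 59 of 66. The member with the most Cdkn1c UMIs was among the 66, and their level without it was not computed. The intervals here leave out the spread between cells. Actc1 was at 150 against 924 CPM (-2.63, -2.88 to -2.38) and Mymk at 189 against 410 CPM (-1.11, -1.35 to -0.88). Mymx stood at 120 CPM in both (0.01, -0.32 to 0.33), Myod1 at 321 against 260 CPM (0.30, 0.10 to 0.50) and E2f8 at 36.6 against 33.5 CPM (0.13, -0.49 to 0.72). The proliferation genes Top2a, at 96.8 against 11.3 CPM (3.10, 2.47 to 3.77), and Mki67, at 25.8 against 3.22 CPM (3.00, 1.80 to 4.37), were higher in the 19. The summed G2/M list had a median of 730 CPM in the 19 and 206 CPM in the 66. The 19 members were thus lower in Cdkn1c, Actc1 and Mymk and higher in Top2a and Mki67. The intervals for Mymx and E2f8 included 0. As the 19 were chosen for S phase genes, higher levels of other proliferation genes in them are partly given by the choice.

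**Figure D3:**
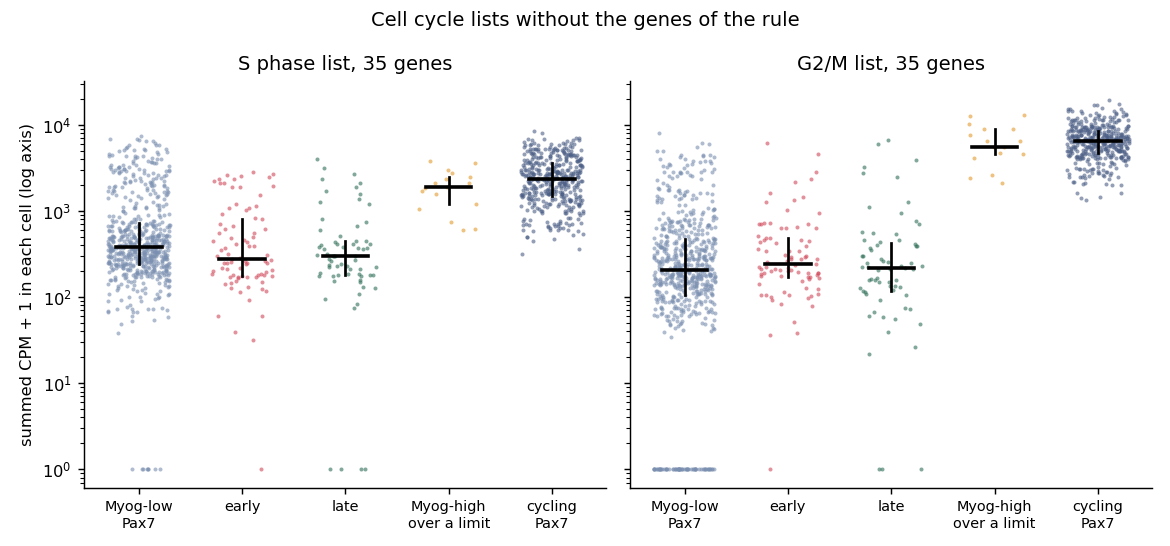
Each point is the summed CPM + 1 (log axis) of the S phase list or the G2/M list in 1 cell, by class, without the genes of the rule. In the S phase panel 19 of 85 members lay at 1000 CPM or more, among cells whose class level was 744 CPM, and Pax7 cells above a histone or mitosis limit had a class level of 2643 CPM.

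Cells with Myog at or above the limit and a histone or mitosis sum at or above 1000 CPM numbered 17, or 16.7% of the 102 Myog-high cells below the Myl4 and Myh3 limit (10.0 to 25.3%). Of Pax7 cells with Myog below 100 CPM, 39.4% of 1054 exceeded these limits. In the 17 cells Cdkn1c stood at 2642 CPM, near the 2794.5 CPM of members, and Mymk had a UMI in 5 of 17 thinned cells, against 37 of 85 members. Actc1 was at 367 CPM and Tnnt2 at 556 CPM, against 713 and 775 CPM in members. Doublet scoring marked 5 of the 17, and their part in these values was not tested.

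Of 31 counted fusion genes, 8 (25.8%) were at least 2-fold higher in members than in Myog-low Pax7 cells and 2 lower. Mymx, which encodes myomixer, the small partner of myomaker, was at 120 against 3.94 CPM (4.93, 4.53 to 5.35). The caveola genes Cavin4 (172 against 20.4 CPM) and Cav3 (73.0 against 18.3 CPM) and Bin1, which encodes a membrane-bending protein of the T-tubules (547 against 207 CPM), were higher too. Ehd2, which encodes an ATPase of the caveolar neck, was lower at 24.6 against 68.8 CPM (-1.48). At full depth, Mymk and Mymx were detected together in 53 members, Mymk without Mymx in 24 and Mymx without Mymk in 1. With each cell thinned to 2000 UMIs, these counts were 6, 31 and 6. After thinning, Mymx had a UMI in 14.1% of members and 47.1% of late myocytes.

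By number, sarcomere genes of the embryonic and early set were the list with the most genes higher in the members, 26 of 43 (60.5%). The background was 5.14%, 5 genes were lower and the median log2 ratio was 1.23. By share, genes of excitation and calcium handling, given below, were similar (61.1%). Actc1, the cardiac alpha-actin that developing skeletal muscle also uses, was at 713 against 11.1 CPM (6.01, 5.78 to 6.24) and had UMIs in 56 of 85 members and 112 of 639 Myog-low Pax7 cells. Tnnt2, the cardiac troponin T gene that is transiently expressed in early myocytes, was at 775 against 41.6 CPM (4.22, 4.09 to 4.35). Klhl41 (3.36) and Lmod3 (3.27), which encode proteins of thin filament assembly, and Ttn (2.36), which encodes titin, were higher as well. The nonmuscle myosin gene Myh10 (-1.31) and the tropomyosin gene Tpm4 (-1.04) were lower. After thinning these ratios were -0.21 and -0.50, and that of Tpm4 was -0.94 with TMM and -0.92 with DESeq2 factors. Adult skeletal actin Acta1 was at 863 against 248 CPM (1.80) and the myosin light chain gene Mylpf at 586 against 182 CPM (1.68). With the sham cells pooled in, their ratios were 0.25 and 0.82 (for Mylpf also 0.82 with a Myl4 and Myh3 limit of 250 CPM), so the levels of these 2 genes in Myog-low Pax7 cells differed between the libraries.

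Among genes of excitation and calcium handling, 11 of 18 (61.1%) were at least 2-fold higher in members than in Myog-low Pax7 cells and none was 2-fold lower. Srl, which encodes the calcium-binding protein sarcalumenin of the sarcoplasmic reticulum, was at 46.0 against 3.94 CPM (3.55, 3.10 to 4.00). Stac3, an adaptor of the calcium channel and the release channel, was at 50.4 against 7.08 CPM (2.83), and the store-operated channel gene Orai1 at 92.9 against 19.9 CPM (2.23). For Sln (2.79), 83.3% of the UMIs were in 1 member, and its ratio was 0.26 with a mitochondrial limit of 5%, 0.35 with Myog of at least 1000 CPM and 0.90 with a Myl4 and Myh3 limit of 250 CPM. Atp2a2, the gene of the calcium pump SERCA2, was at 138 against 140 CPM (-0.02, -0.17 to 0.12).

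Postsynaptic genes followed, with 5 of 10 at least 2-fold higher and none 2-fold lower. The acetylcholine receptor subunit genes Chrna1 (757 against 291 CPM, 1.38), Chrnd (53.1 against 15.3 CPM, 1.79) and Chrng (104 against 25.7 CPM, 2.02) were higher, and gamma is the subunit of the fetal receptor. Dok7, whose product activates the receptor kinase MuSK, was at 29.9 against 2.27 CPM (3.72, 3.15 to 4.32). Musk (25.2 against 27.1 CPM), Rapsn (89.7 against 72.9 CPM) and Chrnb1 (44.3 against 41.3 CPM) were within 2-fold. At full depth Chrna1 had a UMI in all 85 members and in 85.4% of Myog-low Pax7 cells. After thinning the shares were 70.6% and 37.4%. Of genes of the dystrophin complex and costamere, 8 of 23 (34.8%) were higher, led by the syntrophin gene Sntb1 (2.51), and 3 lower, among them Dmd (-1.29) and Tln2 (-1.13). The ratio of Dmd was -0.95 with Myog of at least 250 CPM, and those of Dmd and Tln2 were -0.97 and -0.90 with histone and mitosis limits of 2000 CPM and -0.87 and -0.83 with cycling Pax7 cells included. Itga7, the integrin alpha 7 gene, was at 145 against 104 CPM (0.48). Of 14 mature fibre genes, 4 were higher, among them the calcium pump gene Atp2a1 (135 against 29.7 CPM) and the muscle enolase gene Eno3 (452 against 107 CPM), and 3 were lower.

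**Figure D4:**
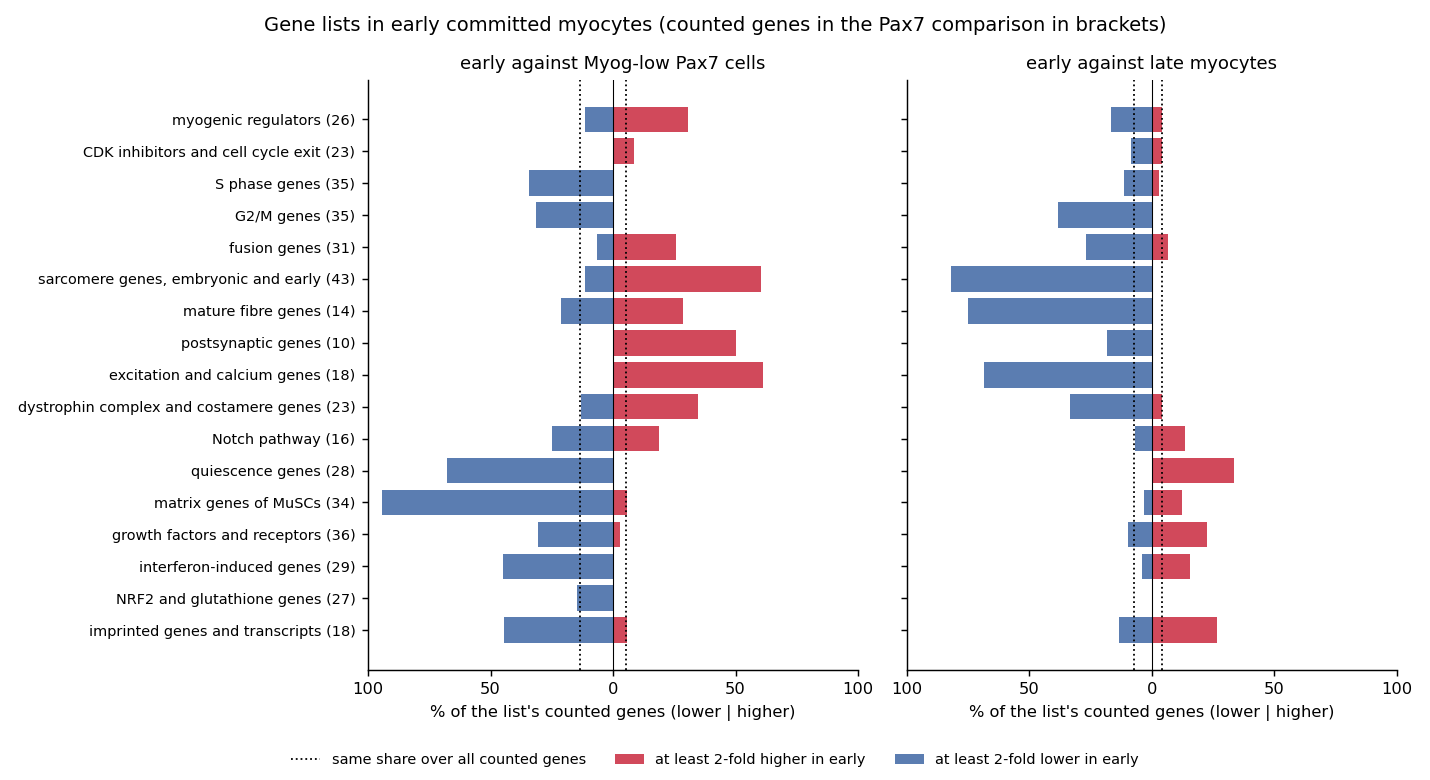
Bars give the share of each list's counted genes that were at least 2-fold higher (right) or lower (left) in members than in Myog-low Pax7 cells and than in late myocytes. Sarcomere and excitation lists reached 60.5% and 61.1% higher against Myog-low Pax7 cells and 81.8% and 68.4% lower against late myocytes.

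In the Notch pathway, 3 of 16 genes were at least 2-fold higher in members than in Myog-low Pax7 cells and 4 at least 2-fold lower. The ligand gene Dll1 was at 32.8 against 6.22 CPM (2.40, 1.99 to 2.81). The other ligand genes were Jag1, at 7.62 against 26.8 CPM (-1.81), and Jag2, at 4.40 against 1.74 CPM (1.34, 0.32 to 2.31, under 100 UMIs in both classes). The ratio of Jag2 was 0.47 with cycling Pax7 cells included and 0.84 with histone and mitosis limits of 2000 CPM. Of the receptors, Notch3 was lower at 12.02 against 75.1 CPM (-2.64, -3.13 to -2.19), and Notch1 stood at 39.9 against 48.1 CPM (-0.27). The target genes Hes1 (32.8 against 99.8 CPM, -1.60) and Heyl (15.8 against 48.4 CPM, -1.61) were lower, while Hes6, an antagonist of Hes1 that promotes differentiation, was higher at 140 against 34.1 CPM (2.04, 1.85 to 2.22). In late myocytes Hes6 reached 315 CPM, Dll1 stood at 19.1 CPM and Notch1 at 16.6 CPM. Members thus held more Dll1 and Hes6 and less Notch3, Jag1, Hes1 and Heyl than Myog-low Pax7 cells.

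Quiescence genes were lower in the members in 19 of 28 cases (67.9%, background 13.5%) and none was 2-fold higher. Beside Dpt and Chodl the list held Chrdl2, a secreted BMP-binding protein gene, at 1.17 against 20.1 CPM (-4.10). Vcam1, whose protein was used in the sort, was at 213 against 971 CPM, and 27.1% of thinned members had a UMI of it, against 76.1% of Myog-low Pax7 cells and 23.3% of Pdgfra cells. The sort therefore acted on a gene that differs between the classes, and its effect on their shares was not tested. Cxcr4 (34.9 against 42.0 CPM) and Sox4 (227 against 330 CPM) were within 2-fold.

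Of 34 matrix genes, 32 (94.1%) were at least 2-fold lower in members than in Myog-low Pax7 cells, with a median log2 ratio of -1.88. Gpc3, a glypican gene, was at 3.23 against 36.1 CPM (-3.48), the insulin-like growth factor binding protein gene Igfbp7 at 38.7 against 274 CPM (-2.82), Col1a1 at 64.8 against 449 CPM (-2.79) and osteopontin (Spp1) at 783 against 1816 CPM (-1.21). The ratio of Spp1 was -0.87 with Myog of at least 250 CPM and -0.95 with cycling Pax7 cells included. The 2 higher genes were Npnt, which encodes the integrin ligand nephronectin (18.8 against 5.08 CPM, 1.89, and 0.59 after thinning), and Spon1, which encodes F-spondin (16.4 against 2.87 CPM, 2.51, 1.92 to 3.12), a gene under 100 UMIs. Summed over the list, matrix genes stood at 3572 CPM in members, 11944 CPM in Myog-low Pax7 cells and 78790 CPM in Pdgfra cells. Fibro-adipogenic markers, which share Dcn and Col1a1 with this list, moved alongside (214, 807 and 20098 CPM), and their part in the matrix result was not tested.

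Growth factor and receptor genes were lower in 11 of 36 cases (30.6%) and higher in 1. The activin gene Inhba was at 3.81 against 16.3 CPM (-2.10, and -0.57 over Pax7 cells with at least 2 Pax7 UMIs) and the epidermal growth factor receptor gene Egfr at 18.5 against 58.5 CPM (-1.66), while the hepatocyte growth factor receptor gene Met was at 47.2 against 49.5 CPM (-0.07). Interferon-induced genes were lower in 13 of 29 cases (44.8%) and higher in none, with Ifit3 at 0.88 against 8.82 CPM (-3.33) and Gbp2 at 11.4 against 47.5 CPM (-2.05). With a Myl4 and Myh3 limit of 1000 CPM the ratio of Gbp2 was 0.083. Of 27 NRF2 and glutathione genes, 4 (14.8%) were lower, close to the background of 13.5%, and none was higher. Nfe2l2, the gene of NRF2, was at 159 against 325 CPM (-1.03, -1.16 to -0.90), just past 2-fold and between -0.99 and -0.79 under 8 alternatives, and Gclm, a subunit gene of the enzyme that starts glutathione synthesis, at 42.2 against 49.6 CPM (-0.23, -0.50 to 0.03).

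Of 18 imprinted genes, Cdkn1c was the 1 at least 2-fold higher in members than in Myog-low Pax7 cells, and 8 (44.4%) were lower. The list's median was -0.85, although its summed level was higher (0.34) because of Cdkn1c. Meg3, a maternally expressed noncoding RNA, was at 63.9 against 356 CPM (-2.48, -2.68 to -2.28), and Rian, from the same cluster, at 8.80 against 37.4 CPM (-2.09). The zinc-finger gene Plagl1 was at 25.8 against 73.2 CPM (-1.50). H19 was at 114 against 77.5 CPM (0.56) and reached 444 CPM in late myocytes. Igf2 was at 28.4 CPM in members and 105 CPM in late myocytes (-1.88).

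Markers of other cell types were at low levels in the members. Ptprc, the CD45 gene, had 1 UMI and the endothelial gene Pecam1 2 UMIs in the 85 cells, while Cd3e, Kdr, Emcn, Myh11 and Gfra3 had none. The summed level of the immune list was 19.9 CPM, that of the endothelial list 4.10 CPM and that of the mural list 12.3 CPM, against 27.4, 6.42 and 23.7 CPM in Myog-low Pax7 cells. The fibro-adipogenic list stood at 214 against 807 CPM, with 6 of 9 counted genes at least 2-fold lower. Of the tenocyte list, Scx, a bHLH factor gene of tendon, was higher at 129 against 38.1 CPM (1.76, 1.57 to 1.94), in 60 members, while Tnmd had 5 UMIs and Kera none. Ncam1, in the Schwann list, was at 180 CPM in members and 224 CPM in Myog-low Pax7 cells, and the other 6 genes of that list had between 0 and 3 UMIs. The erythroid list had a summed level of 1.76 CPM.

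Late myocytes differed from the members in their own direction. Of 9958 counted genes, 421 (4.23%) were at least 2-fold higher in the members and 711 (7.14%) at least 2-fold lower, with a median log2 ratio of 0.08. Sarcomere genes were lower in the members in 36 of 44 cases (81.8%) and higher in none. Myh8, the perinatal myosin heavy chain gene, had 2 UMIs in members and 363 in late myocytes (0.586 against 98.9 CPM, -7.40, -10.45 to -5.53). Tnnc1, slow troponin C, was at 30.8 against 1558 CPM (-5.66, -5.95 to -5.38), and Myoz2, a Z-disc gene, at 0.586 against 92.6 CPM (-7.30). Late myocytes were selected for Myl4 and Myh3, so higher levels of other sarcomere genes in them are partly given by the choice of cells.

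Calcium store genes showed the same order. Casq2, cardiac calsequestrin, was at 4.10 CPM in members and 199.99 CPM in late myocytes (-5.61), Casq1 at 2.35 against 79.3 CPM (-5.08) and the triadin gene Trdn at 11.7 against 120 CPM (-3.36). In all, 13 of 19 excitation and calcium genes were lower in the members and none higher. Tnnt2 (775 against 2858 CPM, -1.88), Actc1 (713 against 1831 CPM, -1.36), Mymk (349 against 1037 CPM, -1.57) and Mymx (120 against 515 CPM, -2.10) were present in members at intermediate levels. Cdkn1c was at 2794.5 against 2302 CPM (0.28, 0.24 to 0.32), and without the member with the most Cdkn1c UMIs the ratio was 0.07 (0.02 to 0.11). Mef2c was at 14.7 against 221 CPM (-3.92), and the lower genes also held Itgb1bp2, the melusin gene (-6.32), Ldb3 (-5.08) and the myosin gene Myh1 (-4.14).

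Genes higher in members than in late myocytes were led by Arl4d, a small GTPase gene, at 70.1 against 12.5 CPM (2.48, 2.02 to 2.97). Msc was at 84.4 against 20.7 CPM (2.03), Plagl1 at 25.8 against 6.81 CPM (1.92), Bmp4 at 25.8 against 7.63 CPM (1.76), the chemokine receptor gene Cxcr4 at 34.9 against 10.6 CPM (1.72) and Sox4 at 227 against 70.3 CPM (1.69). In the quiescence list, 8 of 24 genes (33.3%, background 4.23%) were higher in members and none 2-fold lower, among them Meg3 (1.50) and the receptor gene Fgfr4 (1.45). Notch1 was also higher, at 39.9 against 16.6 CPM (1.26, 0.82 to 1.72). For Msc, Meg3, Plagl1, Sox4 and Cxcr4 the order of class levels was therefore Myog-low Pax7 cells, members, late myocytes, from high to low, with the first 2 within 2-fold for Sox4 and Cxcr4. After thinning to 2000 UMIs, the ratios over late myocytes were 0.26 for Cxcr4, 0.42 for Notch1, 0.60 for Meg3 and 0 for Fgfr4. With a Myl4 and Myh3 limit of 250 CPM that of Meg3 was 0.66.

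Among themselves the members varied along Myog. Over the 85 cells, Spearman's rho of Myog CPM was 0.52 with Tnnt2, 0.49 with Mymk, 0.49 with Cdkn1c, 0.47 with Actc1 and 0.44 with Mymx, and -0.33 with Myf5 and -0.17 with Pax7. With UMIs per cell it was 0.01. These cells share 1 library and the values are ratios to the same cell total, so the coefficients are a description. Myod1 had coefficients of 0.27 with Myog, -0.20 with Actc1 and -0.22 with Mymk. Pax7 and Mymk were detected together in 44 of the 85 cells at full depth and in 2 after thinning. Mymk had a median of 199.5 CPM (quartiles 69.9 and 538, highest 1893), and Tnnt2 a median of 299 CPM. For slow troponin T, Tnnt1, the cell with the most UMIs held 36.5% of the class sum, and for Mef2c 24.0%.

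**Figure D5:**
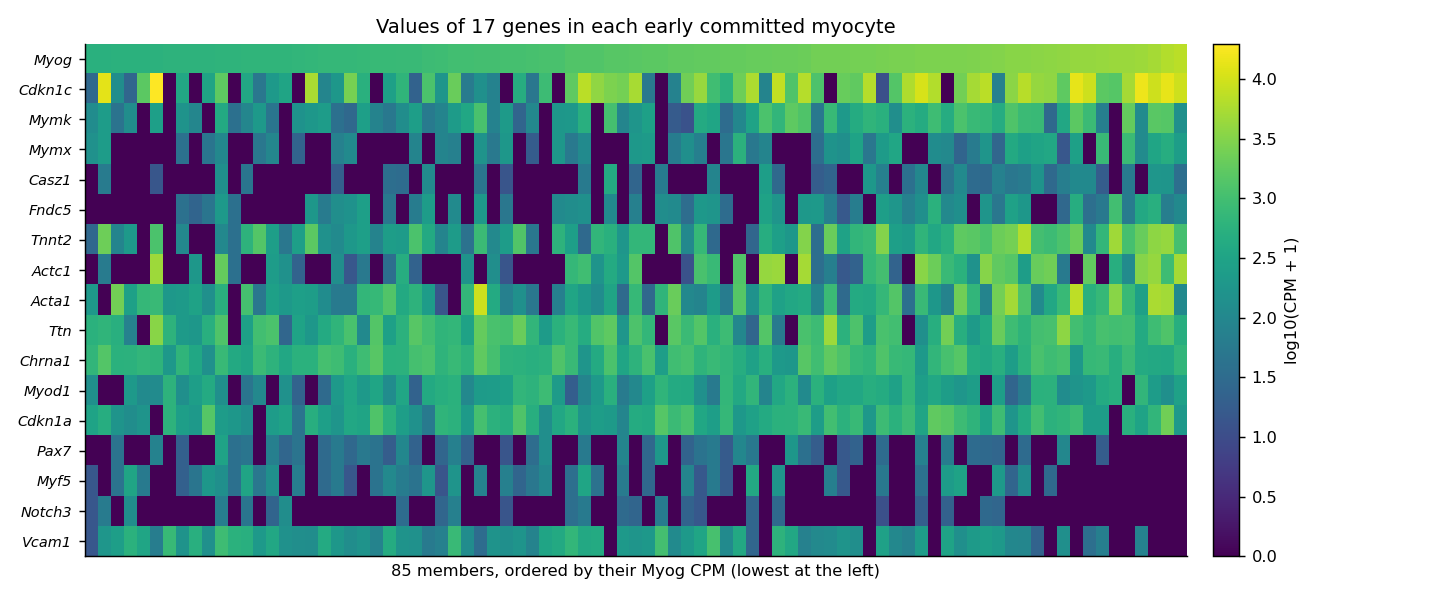
Columns are the 85 members in order of their Myog CPM and rows are 17 genes, with colour for log10(CPM + 1). Tnnt2, Mymk, Cdkn1c and Actc1 were mostly brighter towards the right (rho with Myog 0.47 to 0.52), while Myf5 and Pax7 were not (-0.33 and -0.17).

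Between Myog-low Pax7 cells and members lay 98 cells with Myog from 100 to less than 500 CPM that met the other limits (median 18107.5 UMIs). Their class level fell between those of Myog-low Pax7 cells and members for all 15 genes with the highest and all 10 with the lowest ratios in that comparison. These genes were chosen as the extremes of that comparison and the cells for their intermediate Myog, so this order is largely given by the choice. Of 104 other genes taken by name, 75 lay between the classes and 29 did not. Cdkn1c was at 403 CPM, Mymk at 29.6 CPM, Tnnt2 at 190 CPM and Myod1 at 234 CPM in these cells. Myf5 was at 68.4 CPM, near the 56.3 CPM of members, and Notch3 at 25.9 CPM, between 75.1 and 12.02 CPM. Acta1 (886 CPM) and Mylpf (784 CPM) did not lie between the classes, being above the members' 863 and 586 CPM, and Apoe was at 1157 CPM, above the 754 CPM of Myog-low Pax7 cells. Of these 98 cells, 8 had a UMI of at least 3 of the 4 markers outside the rule (8.16%), between the shares of Myog-low Pax7 cells and members.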

How the data were processed

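Single-cell RNA-seq libraries (10x Genomics droplets, 3′ ends) from sham and MOV plantaris MuSCs were analyzed, 1 library per group. The authors aligned reads to mm10 with Cell Ranger 6.0.0 and deposited filtered matrices of UMI counts for 32285 genes, without normalization. Their further steps used R 4.0.2 and Seurat 4.0.2 and are not part of these counts.

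The UMIs of all cells in a class were added up and expressed as CPM. Classes were compared by log2 ratios with exact conditional intervals at 95%. A gene was counted if the 2 classes together had at least 20 UMIs, without the genes of the rule, and was called at 2-fold. Where a class had no UMI, 3 counts were used as a bound, also in list medians. Shares of cells have exact binomial (Clopper-Pearson) intervals. Cells were thinned to 2000 UMIs. Intervals cover counting error only, and with 1 library per group no test was made.

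Named genes were the 4 markers outside the rule, examples from each list with the largest and smallest ratios among genes of at least 100 UMIs, a few genes the study is about, and the 15 highest and 10 lowest per comparison (at least 100 UMIs, a UMI in 25% of the cells of the higher class). The members and lists were chosen with earlier results of these data known. Some genes that this rule names are not reported here. Doublets were scored against simulated pairs of cells and the top 0.8% per 1000 cells were removed in an alternative only. Scaling factors of edgeR 4.0.16 (TMM) and DESeq2 1.42.0 in R 4.3.3 were alternatives. Python 3.11.15, numpy 2.4.6, scipy 1.17.1, pandas 2.3.3, scikit-learn 1.9.0 and matplotlib 3.10.9 were used, and the ratio script was tested on simulated counts. Leaving out cells with an S phase list of at least 1000 CPM, and the member with the most Cdkn1c UMIs, was chosen after seeing the data.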

Additional observations from a re-analysis of the deposited data

How the results depend on the processing

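No paired analysis was possible because each group was 1 library. Of 87 named genes at least 2-fold apart between members and Myog-low Pax7 cells, 65 were 2-fold apart under every alternative that gave a value (1755 of 1823 values), and of 62 against late myocytes 44 were (1134 of 1177 values). TMM factors shifted all log2 ratios by 0.10 over Myog-low Pax7 cells and -0.06 over late myocytes, and DESeq2 factors by 0.12 and -0.08.

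With Myog of at least 1000 CPM, members were 2.54% of MOV cells, Mymk and Mymx were detected together in 74.5% of them, and after thinning Mymk was detected in 65.5% and Cdkn1c in 76.4%. With Myog of at least 250 CPM the share was 4.90%. Without cells high in S phase genes, an alternative chosen after seeing the data, the share was 4.91% and Myog-high cells above a histone or mitosis limit were 4.35% of Myog-high cells, and with histone and mitosis limits of 2000 CPM they were 8.82%. Genes 2-fold higher than in Myog-low Pax7 cells numbered 1661 without a minimum of UMIs and 314 with at least 100 UMIs. Genes lower than in Myog-low Pax7 cells numbered 965 with thinned cells and 883 with at least 100 UMIs. Genes higher than in late myocytes numbered 823 with a Myl4 and Myh3 limit of 1000 CPM, 708 from the mean of per-cell CPM, 165 with thinned cells, 1128 without a minimum and 121 with at least 100 UMIs. Genes lower than in late myocytes numbered 156 with thinned cells, 1391 without a minimum and 272 with at least 100 UMIs. Fewer genes pass a higher minimum or a thinned depth by construction, and the cause of the other moves was not tested.

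Signs turned over for a few genes. Against Myog-low Pax7 cells, these were Gbp2 (0.083 with a Myl4 and Myh3 limit of 1000 CPM) and Clspn (0.74 with thinned cells). Against late myocytes, Basp1 was -0.58 with a limit of 250 CPM, and Gbp2 was 4.70 with a limit of 1000 CPM and 2.17 in cells with Y-linked and no Xist UMIs. Clspn was 0.089 with a limit of 1000 CPM, 0.13 without cells high in S phase genes, 0.016 from the mean of per-cell CPM and 1.68 with thinned cells. Mki67 was 0.38 with histone and mitosis limits of 2000 CPM. With thinned cells Heyl was -0.32, Spon1 -1.32 and Tead4 0.093. The cause was not tested. No early committed myocyte had a Xist UMI, so the alternative for such cells gave no value. Late myocytes and Myog-low Pax7 cells of MOV had none either. The alternative for Y-linked UMIs therefore only left out cells without such a UMI and does not compare sexes.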

Other observations

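The sham library held 1 Myog-high cell above a histone or mitosis limit, with 55913 UMIs, and 1 late myocyte, with 4837 UMIs. A Y-linked UMI was found in 80 of the 85 early committed myocytes and a Xist UMI in none of them. The MOV library held 4 Xist UMIs and 12467 Y-linked UMIs in all, and the sham library 0 and 1036. The methods name male and female mice, and the reason for the near absence of Xist was not tested.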
